A study of Mus musculus with 12 samples.

Results

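The phagocyte NADPH oxidase was described in laser-captured spinal cord astrocytes through 6 genes, Cyba, Cybb, Ncf1, Ncf4, Rac2 and the related homologue Nox4. Its members were all probe sets that the platform annotation assigns to one of these symbols, 12 of the 45101 probe sets on the array. The SOD1 G93A mouse carries a human SOD1 gene with a mutation that causes amyotrophic lateral sclerosis, driven by the human gene's own promoter in all tissues. All animals were male and on a C57Bl/6 J Ola/Hsd background, and the controls were non-transgenic (NTg) littermates. The 4 groups were NTg and SOD1 G93A mice at 90 days, the symptomatic stage, and NTg and SOD1 G93A mice at 120 days, the late stage, with 3 mice per group and 1 array per mouse. About 1500 cells had been cut per animal from the lumbar spinal cord by laser capture, so that each array also holds RNA of whatever lay in the captured spots.

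The phagocyte oxidase moves electrons from NADPH across a membrane onto oxygen and so makes superoxide, which microglia, macrophages and neutrophils release when they engulf particles. Its membrane part is a pair of proteins, the catalytic gp91phox (Cybb) and its partner p22phox (Cyba), which also stabilises several other NOX enzymes. The cytosolic organiser p47phox (Ncf1), the adaptor p40phox (Ncf4) and a Rac GTPase join it on stimulation, with Rac2 as the form of blood cells. Nox4 is a homologue that needs p22phox but none of the cytosolic subunits and makes mainly hydrogen peroxide. In the spinal cord the phagocyte form is known above all from microglia.

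The labelled cell type was present in every group, since the astrocyte markers Gfap and Aldh1l1 lay at 102.3 to 5747.3 and at 109.2 to 428.6 intensity units over the arrays. Markers of other cells were present too. Over the 12 arrays the summed intensity was 23318.0 to 60875.3 for 7 oligodendrocyte markers and 9099.7 to 25590.4 for 12 neuron markers. It was 18303.1 to 39902.3 for 13 astrocyte markers. Such sums depend on the genes listed and do not measure shares of cells. The summed intensity of 12 resting microglia markers was 2374.5 to 3981.9 in NTg against 5189.1 to 7625.7 in transgenic mice at 90 days, and 1356.5 to 1666.7 against 5620.1 to 5889.5 at 120 days. Most of this sum came from Csf1r, the receptor of colony stimulating factor 1, at 905.5 to 3185.3 units in NTg and 3821.5 to 6123.4 in SOD1 G93A mice over both ages. Fcrls lay at 43.0 to 78.2 in NTg and 334.6 to 574.3 in SOD1 G93A mice, and Aif1 at 9.1 to 34.3 and 60.5 to 98.7. The homeostatic markers P2ry12 and Tmem119 were dim, at 9.0 to 25.8 and 6.0 to 89.5 units in NTg and 26.3 to 42.1 and 21.5 to 112.7 in SOD1 G93A mice. Their log2 differences between the genotypes were 0.39 and 0.13 at 90 days and 0.70 and 1.17 at 120 days, and they were not called. Sall1 was lower in SOD1 G93A mice, by -0.41 at 90 and -0.09 at 120 days, without a call. At each age 10 of 11 tested resting markers had a positive difference, as did 6557 of all 12429 genes at 90 and 5563 at 120 days. Neutrophil markers, which would bring the same oxidase, had a summed intensity of 9 genes of 68.6 to 324.0 in NTg and 97.2 to 239.8 in SOD1 G93A mice over both ages. Of these S100a8 lay at 2.7 to 122.1, Ltf at 10.1 to 97.7 and S100a9 at 1.7 to 19.0 units over the 12 arrays. Only 2 of the 9 passed the filter on low signals and were tested, and they were not called at either age. The part of neutrophils in the oxidase signal was not tested. None of 8 lymphocyte markers passed the filter on low signals. One array, of SOD1 G93A replicate 3 at 120 days, had a higher median intensity (55.2 against 27.9 to 43.1 on the other arrays of that age) and a lower mean correlation with its own group (0.83) than the others. In such samples more cells of a type and more RNA per cell cannot be told apart.

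The sequences upstream of a transcript start of Cybb, Ncf1 and Cyba are shown because these 3 subunit genes were higher together in SOD1 G93A mice at 120 days. They are the 250 bases before 1 RefSeq transcript start, read 5′ to 3′ on the gene's strand. The promoter table of build GRCm38.p6 held 4 of the 6 genes. The Cybb and Nox4 windows lie inside the gene spans given below, and the Ncf1 window overlaps its span. Positions are thus counted from that transcript start, not from the outer end of the gene. Capitals mark matches to the letters GAAANNGAA, a core of the interferon-stimulated response element, on either strand.
Cybb chrX:9469325-9469574, minus strand: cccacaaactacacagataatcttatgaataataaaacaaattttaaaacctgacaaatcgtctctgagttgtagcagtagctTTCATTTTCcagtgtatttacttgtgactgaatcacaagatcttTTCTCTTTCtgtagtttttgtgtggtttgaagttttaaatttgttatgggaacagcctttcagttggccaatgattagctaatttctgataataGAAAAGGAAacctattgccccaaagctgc
Ncf1 chr5:134229626-134229875, minus strand: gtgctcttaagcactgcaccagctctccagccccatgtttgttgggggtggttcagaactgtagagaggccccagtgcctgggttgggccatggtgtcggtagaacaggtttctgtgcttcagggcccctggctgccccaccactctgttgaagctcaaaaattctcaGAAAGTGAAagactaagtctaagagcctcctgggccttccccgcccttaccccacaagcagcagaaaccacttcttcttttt
Cyba chr8:122432941-122433190, minus strand: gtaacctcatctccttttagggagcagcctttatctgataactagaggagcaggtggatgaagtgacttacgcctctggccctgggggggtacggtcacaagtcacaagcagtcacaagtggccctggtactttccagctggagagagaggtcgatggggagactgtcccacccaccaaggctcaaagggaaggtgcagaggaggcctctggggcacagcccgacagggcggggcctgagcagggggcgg
The Cybb stretch held 3 matches, at positions -167 to -159, -123 to -115 and -29 to -21 from the start, and the Ncf1 stretch held 1, at -82 to -74. The Cyba and Nox4 stretches held none. These letters occurred in 7.13% of 32851 mouse promoter stretches of the same length. The PU.1 core GAGGAA (23.3% of stretches) and the ETS-IRF core GGAANNGAA (6.99% of stretches, which can share letters with either of the other motifs) were not in any of the 4 windows. A match is a run of letters and was not measured as a bound site.

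Cyba, on chromosome 8 (GRCm38.p6, 122424771 to 122432940, minus strand), was measured by 1 probe set, 1454268_a_at. Its deposited intensities were 84.1, 48.7 and 54.5 in NTg against 178.4, 274.8 and 228.1 in transgenic mice at 90 days. At 120 days they were 2.2, 14.5 and 18.2 in NTg against 173.0, 161.7 and 169.6 in transgenic mice. All 3 transgenic animals lay above all 3 controls at both ages, and the late-stage controls were the lowest group. On the scale used for testing, log2 of the intensity plus an offset of 7, quantile-normalised within each age, Cyba was higher in SOD1 G93A mice by 1.73 (standard error 0.38, limma adjusted p = 0.152) at 90 days. At 120 days it rose by 3.15 (standard error 0.38, adjusted p = 0.000551), an 8.85-fold difference. The offset makes such differences smaller for dim signals, as those of the late-stage controls, and the late-stage value ran from 2.06 to 3.82 under the other settings tried, with an adjusted p of at most 0.0146. Without NTg replicate 1 of 120 days, whose value of 2.2 was the lowest, the late-stage difference was 2.59 (adjusted p = 0.00113), and the difference at 90 days, unchanged in size, then had an adjusted p of 0.0305.

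Cybb, on chromosome X (9435252 to 9487766, minus strand), had 3 probe sets that did not behave alike. The brightest, 1436778_at, had intensities of 17.7, 9.2 and 16.7 in NTg against 37.6, 56.3 and 69.2 in transgenic mice at 90 days. At 120 days it read 17.2, 9.4 and 18.6 in NTg against 135.6, 74.5 and 64.9 in transgenic mice. Again no transgenic animal overlapped with the controls. At 90 days the log2 difference was 1.45 (standard error 0.34, adjusted p = 0.203), and at 120 days the gene rose by 1.75 (standard error 0.34, adjusted p = 0.0102), a 3.35-fold change. That call was lost without NTg replicate 2 of 120 days, when the difference was 1.61 (adjusted p = 0.0608), and under the other settings the difference was 1.11 to 2.12.
The probe set 1436779_at read 10.1, 11.1 and 0.6 in NTg against 12.2, 19.2 and 17.1 in transgenic mice at 90 days. At 120 days its values were 26.9, 11.9 and 18.5 against 44.7, 51.6 and 64.5. These intensities did not overlap at either age, though those of 90 days did after normalisation, and the log2 differences of 0.69 (adjusted p = 0.922) and 0.84 (standard error 0.34, adjusted p = 0.137) did not pass the test. On the values as deposited, without quantile normalisation, the late-stage difference of this probe set was 1.24 and passed it (adjusted p = 0.0375). The probe set 1422978_at lay between 0.8 and 15.3 on all arrays, close to the offset, and its groups overlapped at both ages.

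Ncf1, on chromosome 5 (134220053 to 134229628, minus strand), had 1 bright probe set, 1456772_at, which lay above the array median on all 12 arrays. At 90 days it read 91.3, 56.2 and 71.9 in NTg against 112.6, 128.5 and 173.9 in transgenic mice. At 120 days it read 59.1, 55.6 and 77.3 in NTg against 185.9, 180.7 and 337.3 in transgenic mice. The groups did not overlap at either age. At 90 days the log2 difference was 0.82 (standard error 0.31, adjusted p = 0.749), and at 120 days Ncf1 rose by 1.70 (standard error 0.31, adjusted p = 0.00752), a 3.24-fold change. Its 2 other probe sets were dim, at 1.7 to 13.6 units for 1425609_at and at 1.0 to 29.3 units for 1451767_at. The first overlapped between the groups at both ages. The second read 3.2, 1.0 and 3.6 in NTg against 8.1, 16.6 and 29.3 in transgenic mice at 120 days, which did not overlap, and its groups overlapped at 90 days.

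Ncf4, on chromosome 15 (78244164 to 78262582), was measured by 1418465_at. Its intensities at 90 days were 30.4, 18.1 and 17.2 in NTg against 97.4, 38.9 and 45.7 in transgenic mice. At 120 days they were 27.2, 8.9 and 11.5 in NTg against 86.4, 58.8 and 153.5 in transgenic mice. The groups were again apart at both ages, with a wide spread among the transgenic animals. At 90 days the log2 difference was 1.13 (standard error 0.41, adjusted p = 0.665), and at 120 days Ncf4 rose by 1.96 (standard error 0.41, adjusted p = 0.0142), a 3.88-fold change. This call rested on few controls, since the adjusted p was 0.0785 without NTg replicate 2 and 0.0691 without NTg replicate 3 of 120 days. Under the other settings its difference was 1.26 to 2.28.

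Rac2, on chromosome 15 (78559169 to 78572783), encodes the GTPase that switches the oxidase on in blood cells. Its brighter probe set, 1417620_at, read 11.2, 16.0 and 21.6 in NTg against 28.6, 24.1 and 28.5 in transgenic mice at 90 days. At 120 days it read 27.2, 5.6 and 3.6 in NTg against 4.1, 36.5 and 47.3 in transgenic mice. The groups were apart at 90 days and overlapped at 120 days, where both spread widely. The other probe set, 1440208_at, lay at 0.7 to 31.6 units and overlapped at both ages. Both Rac2 probe sets were too dim to pass the filter. Without any filter the log2 difference of 1417620_at was 0.51 (95% interval -0.52 to 1.54, adjusted p = 1.00) at 90 days and 0.45 (95% interval -0.58 to 1.48, adjusted p = 0.651) at 120 days, so that both no change and a rise of over 2-fold lay within the intervals.

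Nox4, on chromosome 7 (87244430 to 87398710, plus strand), was dim at 90 days and in all controls. Its probe set 1451827_a_at read 3.9, 5.4 and 7.6 in NTg against 5.9, 12 and 11.1 in transgenic mice at 90 days. At 120 days it read 12.6, 10.5 and 8.5 in NTg against 22.0, 38.6 and 121.5 in transgenic mice. The late-stage groups did not overlap, but the highest value came from SOD1 G93A replicate 3, the array that stood apart. It did not pass the filter. Without any filter the log2 difference at 120 days was 1.37 (standard error 0.43, adjusted p = 0.101), and the difference of the group means fell to 0.75 when that array was left out. The second Nox4 probe set, 1419161_a_at, lay at 0.6 to 11.3 units, and its groups overlapped at 90 days but not at 120 days.

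**Figure D1:**
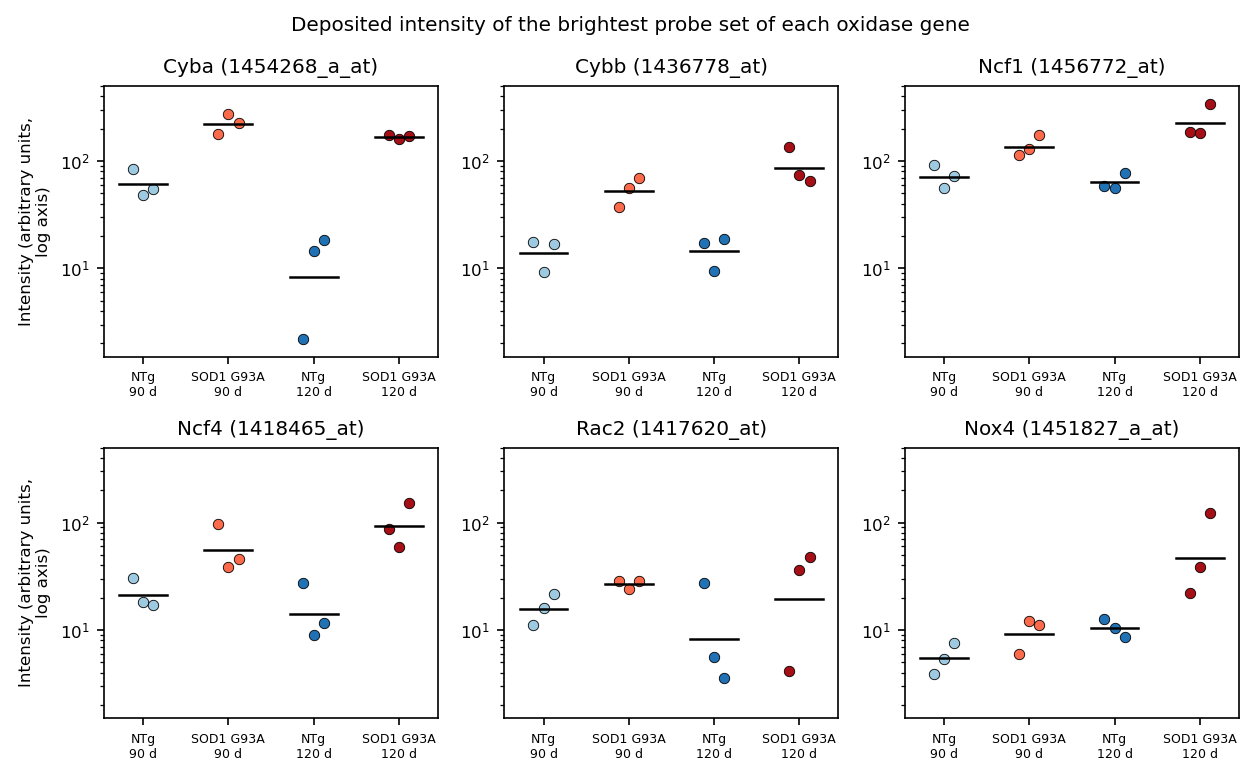
Deposited intensity (arbitrary units, log axis) of the brightest probe set of each of the 6 genes, with 1 point per mouse and a line at the geometric mean of the 3 mice of a group. Cyba, Cybb, Ncf1 and Ncf4 lie higher in all SOD1 G93A mice than in the NTg mice of the same age, the Rac2 groups overlap at 120 days, and Nox4 spreads from 22.0 to 121.5 in late-stage SOD1 G93A mice.

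Of the 12 probe sets, 5 passed the filter, which asked for a signal above the median of the array on at least 3 arrays. Both Cybb probe sets tested passed it through SOD1 G93A arrays alone, 6 for 1436778_at and 3 for 1436779_at. Ncf4 passed it through 6 SOD1 G93A arrays and 1 NTg array, Cyba was above the median on 6 and 3, and Ncf1 on all arrays. At 90 days 0 of the 5 had a limma adjusted p under 0.05, 4 had an unadjusted p under 0.05, and 0 were called by the unmoderated test. Over all 26132 probe sets tested, 0.115% were called higher at 90 days and 5.61% had an unadjusted p under 0.05 in either direction. At 120 days 4 of the 5 were called higher, against 3.60% of all probe sets. By the threshold of the study's methods, a 2-fold change with an unadjusted p under 0.05, 3 of the 5 were higher at 90 days (0.999% of all probe sets) and 4 at 120 days (5.18%), and the difference between the ages passed it for 1 (3.28%). On normalised values the groups did not overlap, with SOD1 G93A above, in 4 of the 5 at 90 days (5.74% of all probe sets tested) and in 5 of the 5 at 120 days (14.0%). The median log2 difference of the 5 was 1.13 at 90 days and 1.75 at 120 days, with -0.0022 and -0.07 over all probe sets tested. Because some members passed the filter only where they were high, these counts and medians describe the 5 and are no support for a difference.

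The change in SOD1 G93A mice was not shown to differ between the ages. All 5 probe sets had a larger difference at 120 than at 90 days, by 0.15 to 1.41 log2 units. Over all probe sets tested it was more positive at 120 days in 11859 of 26132. Of the 5, 0 passed the limma test of that difference between the ages, as 0.00% of all probe sets did. Cyba alone had an unadjusted p under 0.05 for it, with 1.41 (95% interval 0.25 to 2.58, limma adjusted p = 0.494), and 0 of the 5 were called by the unmoderated test. Over all probe sets 9.24% had an unadjusted p under 0.05.

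**Figure D2:**
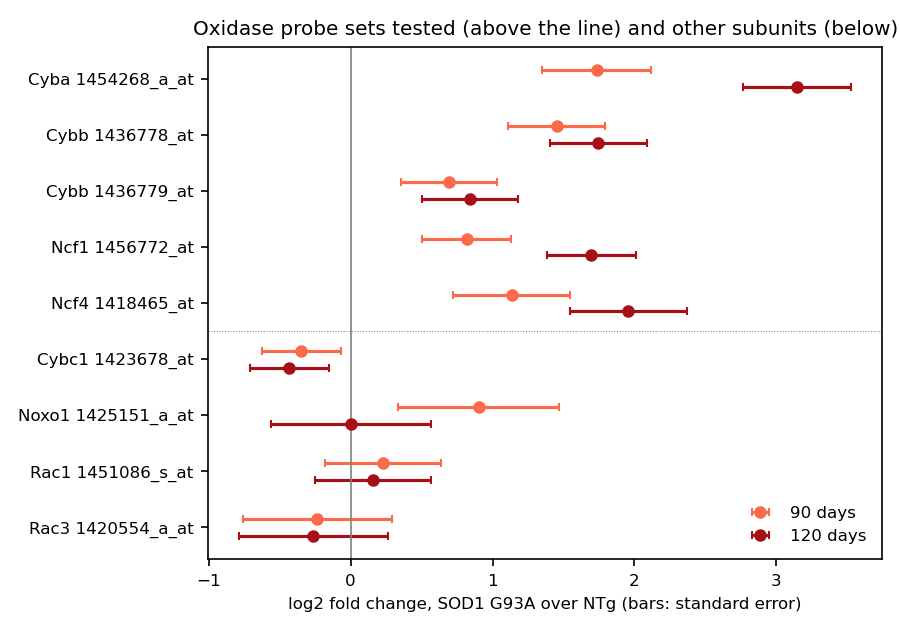
Log2 difference between SOD1 G93A and NTg mice, at 90 and 120 days, for the 5 oxidase probe sets tested and for 4 probe sets of other subunits, as points with bars of 1 standard error (3 mice per group). The 5 oxidase probe sets lie at 0.69 to 1.73 at 90 days and at 0.84 to 3.15 at 120 days, those of Cybc1, Rac1 and Rac3 lie within 0.43 of 0 at both ages, and that of Noxo1 lies at 0.90 at 90 days with a standard error of 0.57 and at 0.0040 at 120 days.

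Between the ages, within a genotype, 1 of the 5 probe sets was called. On values quantile-normalised over all 12 arrays, Cyba was ordered as SOD1 G93A at 90 days (log2 7.82 ± 0.26, SD, n = 3), SOD1 G93A at 120 days (7.47 ± 0.07), NTg at 90 days (6.20 ± 0.31) and NTg at 120 days (4.12 ± 0.85). It fell by 2.08 from 90 to 120 days in NTg mice (standard error 0.36, limma adjusted p = 0.0107; 2.48% of all probe sets were called lower), and this call was lost without NTg replicate 1 of 90 days (adjusted p = 0.0537). The ages were different mice and may be different array runs, which cannot be told apart from age. Other measures moved between these controls too. The log2 ratio of the 3′ to the 5′ Gapdh control probe sets, a sign of RNA length, was 3.51, 3.69 and 4.64 in NTg mice at 90 days against 5.10, 4.58 and 4.89 at 120 days. The summed deposited intensity was 2374.5 to 3981.9 against 1356.5 to 1666.7 for resting microglia markers. It was 27418.0 to 33450.2 against 18303.1 to 22186.9 for astrocyte markers. For neuron markers the ages overlapped, at 21456.9 to 24333.0 against 20565.5 to 25590.4. Gfap lay at 784.6 to 3302.8 against 102.3 to 231.4 units. Their part in the Cyba change was not tested. In SOD1 G93A mice the change was -0.35 (adjusted p = 0.564), and 0 of the 5 were called (3.06% of all probe sets were called higher and 3.94% lower). For the Cybb probe set 1436778_at the order was SOD1 G93A at 120 days (6.32 ± 0.78), SOD1 G93A at 90 days (5.98 ± 0.36), NTg at 90 days (4.66 ± 0.25) and NTg at 120 days (4.41 ± 0.18), and neighbours of the same genotype did not differ by the test, with changes of 0.34 (adjusted p = 0.571) and -0.25 (adjusted p = 0.745). The Cybb probe set 1436779_at was instead higher in NTg mice at 120 (4.65 ± 0.23) than at 90 days (3.98 ± 0.91), by 0.67 (adjusted p = 0.336), and in SOD1 G93A mice its change of 0.85 (adjusted p = 0.165) became 1.39 and passed the test on the values as deposited (adjusted p = 0.0247). Ncf1 had the order of 1436778_at, from 7.96 ± 0.65 and 7.16 ± 0.27 in SOD1 G93A mice to 6.40 ± 0.25 and 6.15 ± 0.21 in NTg mice. Its age change was 0.80 (adjusted p = 0.136) in SOD1 G93A and -0.26 (adjusted p = 0.705) in NTg mice. Ncf4 also had this order, with an age change of 0.47 (adjusted p = 0.497) in SOD1 G93A and -0.63 (adjusted p = 0.424) in NTg mice.

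The resting microglia markers moved with the oxidase genes. Their score, the mean log2 signal of 12 markers, was higher in SOD1 G93A mice by 0.73 at 90 days and by 1.14 at 120 days, with 1 of 11 tested markers called higher at 90 and 5 of 11 at 120 days (0.185% and 4.14% of all genes). On the same scale the differences of Cyba were 1.73 and 3.15, those of Cybb 1.45 and 1.75 for 1436778_at and 0.69 and 0.84 for 1436779_at, those of Ncf1 0.82 and 1.70, and those of Ncf4 1.13 and 1.96. Of 10 markers of activated microglia 6 were called higher at 90 and 8 at 120 days, with median log2 differences of 2.52 and 2.82. Their mean log2 signal was 5.16 in NTg and 7.54 in transgenic mice at 90 days, against 4.84 and 7.84 at 120 days, a wider step than that of the resting markers. Their summed intensity was 1163.4 to 1474.1 in NTg and 3906.1 to 5026.3 in SOD1 G93A mice at 90 days, and 684.3 to 885.3 and 5106.6 to 6451.0 at 120 days. Among 7 monocyte and perivascular macrophage markers, of which 3 were tested, 0 were called at 90 days (1 at an unadjusted p under 0.05) and 1 at 120 days. Astrocyte markers did not move as a whole, with 0 of 13 called at 90 days (1 at an unadjusted p under 0.05) and 3 of 13 at 120 days. Gfap was among these 3, with a log2 rise of 4.79 (limma adjusted p = 0.000123). The medians of the list were 0.15 at 90 and 0.30 at 120 days. At 120 days 8 of the 13 differences were positive (5563 of all 12429 genes), and the lowest was -0.80, for Gjb6. The part of these cells in the oxidase differences was not tested.

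**Figure D3:**
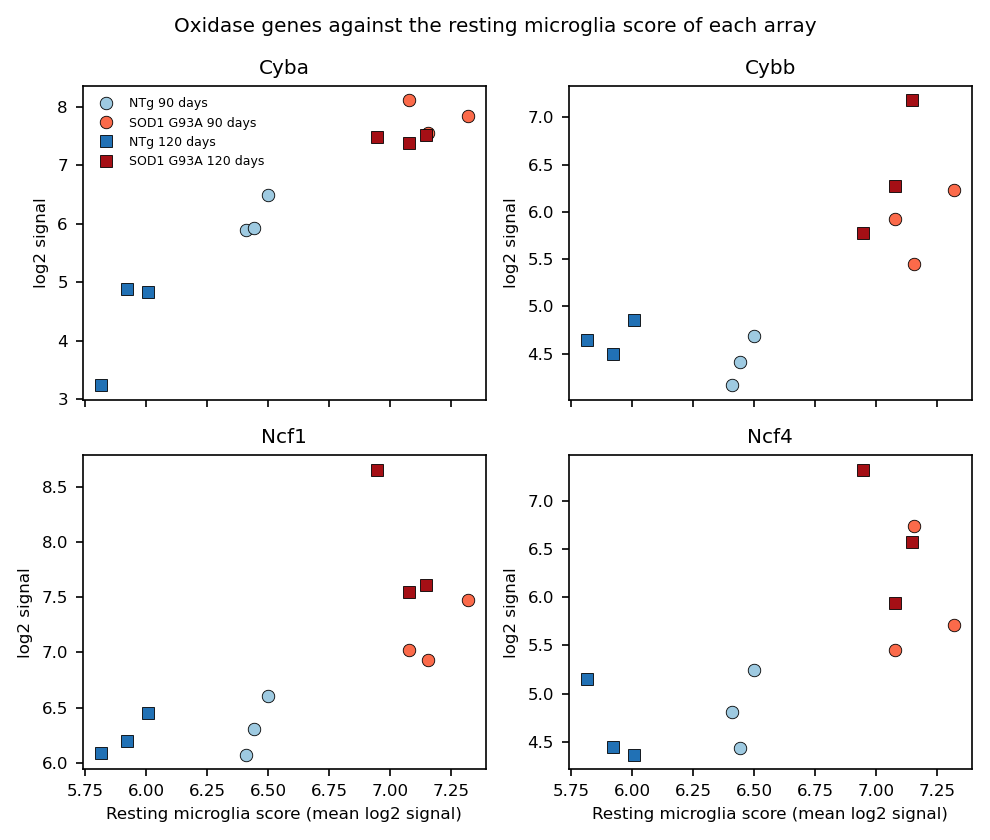
Normalised log2 signal of Cyba, Cybb, Ncf1 and Ncf4 (vertical axes) against the resting microglia score of the same array (horizontal axes, mean log2 signal of 12 markers), with 1 point per mouse, circles for 90 and squares for 120 days. The SOD1 G93A mice lie to the right of the NTg mice of their age and higher, and at 120 days the mean score differs by 1.14 and the Cyba signal by 3.15.

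None of the other subunits and homologues tested here was called. Of 11 further subunits and homologues 7 were annotated and 4 tested, and 0 of the 4 were called at either age (0 at an unadjusted p under 0.05, and 0 by the unmoderated test), with medians of -0.0028 at 90 and -0.13 at 120 days. The chaperone Cybc1, which is needed to make the Cybb and Cyba pair, differed by -0.35 at 90 days (adjusted p = 1.00) and by -0.43 at 120 days (standard error 0.28, adjusted p = 0.352). The widely expressed GTPase Rac1 differed by 0.23 and 0.16 (standard error 0.41, adjusted p = 0.841 at 120 days), measured by a probe set that may share sequence with related transcripts. Its relative Rac3 differed by -0.23 and -0.26 (standard error 0.53, adjusted p = 0.787 at 120 days). Noxo1, the homologue of p47phox in the NOX1 enzyme, differed by 0.90 at 90 days (standard error 0.57, adjusted p = 1.00) and by 0.0040 at 120 days (standard error 0.57, adjusted p = 0.998). Its intensities at 90 days were 2.1 to 27.3 in NTg and 34.1 to 36.2 in transgenic mice, which did not overlap, and they overlapped at 120 days. Of the 3 genes that were too dim to be tested, Duoxa1, a maturation factor of the dual oxidase DUOX1, read 4.8 to 7.6 in NTg against 34.3 to 67.7 in transgenic mice at 120 days, without overlap, and at most 4.3 in both groups at 90 days. Noxo1 and Duoxa1 were chosen for mention after their values were seen.

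Of 19 tested genes that assemble or activate the oxidase, 0 were called at 90 days. An unadjusted p under 0.05 was reached at that age by 3, and by 5.61% of all probe sets tested. At 120 days 4 rose and 1 fell, where 4.14% and 4.47% of all 12429 genes rose and fell. Arhgdib, an inhibitor that holds Rac proteins in the cytosol, rose by 1.73 (adjusted p = 0.00310). The proton channel Hvcn1, which balances the charge that the oxidase moves, rose by 1.55 (adjusted p = 0.0228) and had differed by 1.51 (adjusted p = 0.213) at 90 days. The lipid kinase Pik3cg rose by 0.91 (adjusted p = 0.0458) and the Rac exchange factor Vav1 by 0.97 (adjusted p = 0.0491). The kinase Prkcb, which phosphorylates p47phox and is also abundant in neurons, fell by 1.17, at the edge of the threshold (adjusted p = 0.0499). Among the neuron markers 4 of 12 fell, and their part in the Prkcb change was not tested. The median of the list was 0.47 against -0.08 over all genes. The count of 5 was sensitive to single arrays, since 1 to 4 were called when one was left out, and 2 by the unmoderated test.

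Of 15 tested receptors and receptor adaptors linked to the oxidase, 1 rose at 90 days (0.185% of all genes) and 8 at 120 days (4.14% of all genes). All 15 had a positive difference at 120 days, as did 5563 of all 12429 genes. The medians of the list were 0.74 at 90 and 1.39 at 120 days. The fungal pattern receptor Clec7a rose at both ages, by 3.15 (adjusted p = 0.00206) and 3.07 (adjusted p = 0.000375), from 7.5 to 25.6 units in NTg to 136.2 to 308.1 in transgenic mice at 90 days. The cytokine receptor chain Csf2rb rose at 120 days by 2.42 (adjusted p = 0.000195), and the adaptor Tyrobp of activating receptors by 3.49 (adjusted p = 0.000451). The receptor of tumour necrosis factor, Tnfrsf1a, rose by 1.97 (adjusted p = 0.00238). The integrin chain Itgb2 rose by 2.80 (adjusted p = 0.00383) and the Fc receptor Fcgr3 by 2.11 (adjusted p = 0.00604).

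Transcription factors known at phagocyte oxidase genes rose in 1 of 8 cases at 90 days (0.185% of all genes) and in 3 of 8 at 120 days (4.14%), with medians of 0.53 and 0.79. Irf8, a factor of the myeloid lineage, rose by 2.23 (adjusted p = 0.0101) at 90 and by 2.84 (adjusted p = 0.000261) at 120 days. Its call at 90 days was lost without SOD1 G93A replicate 3 or NTg replicate 2 of that age, and by the unmoderated test. Cebpb rose by 1.89 (adjusted p = 0.00308) and the interferon response factor Irf1 by 1.15 (adjusted p = 0.0321) at 120 days. Among 8 genes that remove superoxide and hydrogen peroxide, 0 were called at 90 days (0 at an unadjusted p under 0.05) and 1 at 120 days (4.14% of all genes), Gpx1, which reduces hydrogen peroxide and rose by 1.68 (adjusted p = 0.00228). The medians of that list were -0.15 and 0.06.

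**Figure D4:**
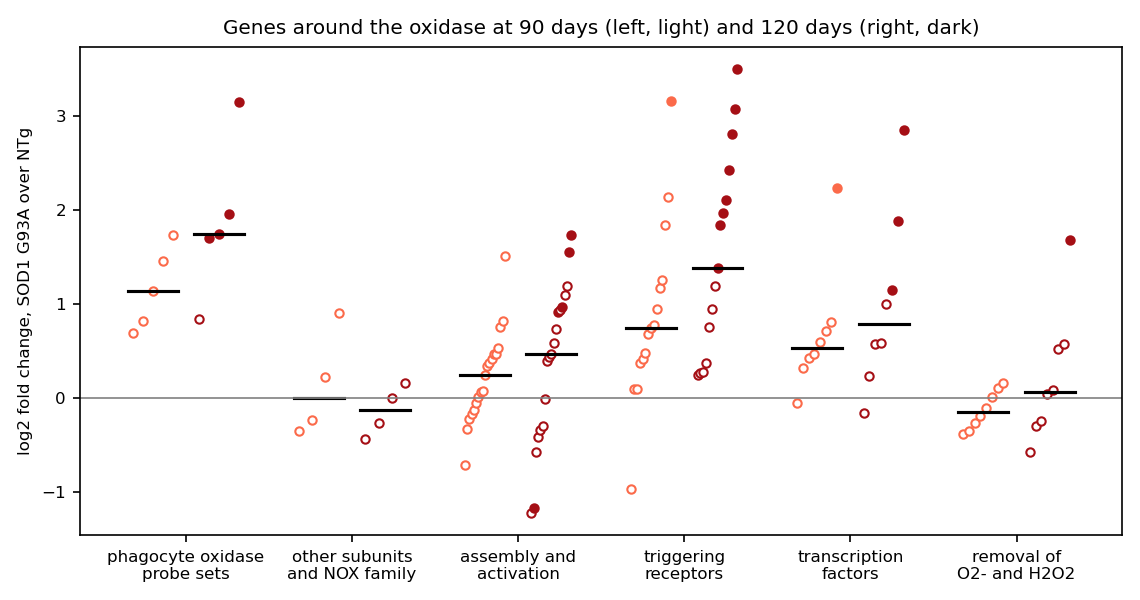
Log2 difference between SOD1 G93A and NTg mice for each probe set or gene tested of the oxidase and of 5 lists around it, at 90 days (light, left) and 120 days (dark, right), filled where the adjusted p was under 0.05, with a line at the median. The oxidase probe sets and the receptors linked to the oxidase (labelled as triggering) have medians of 1.75 and 1.39 at 120 days. Those of the other subunits and the removal genes are -0.13 and 0.06.

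The genes most like each member were sought by the smallest root mean square difference over the 12 arrays, after subtracting from each log2 signal the NTg mean of the same age, among 12425 genes. For Cyba they were Ctsz (0.50), Hk3 (0.50) and C1qa (0.51), where the median of all genes was 1.91. For Cybb they were Plin2 (0.31), Ctss (0.33) and Rhoj (0.34), against a median of 1.27. For Ncf1 they were Vamp5 (0.25), Dhrs3 (0.25) and Rps18 (0.27), against a median of 1.09. For Ncf4 they were Cox6a2 (0.32), Mvp (0.39) and Galnt3 (0.40), against a median of 1.31. Rac2 and Nox4, which are dim, had Psg21 (0.29) and Btg1 (0.29) as their nearest genes, followed by Syngr4 and 1700029J07Rik for Rac2 and by Ndufaf8 and Snhg5 for Nox4. All arrays entered each of these distances, so that they share the technical spread of the 12 arrays.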

How the data were processed

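The authors made cRNA from each mouse by 2 rounds of linear amplification and hybridised it to 1 Affymetrix whole-genome mouse GeneChip. The deposited values are linear MAS5 signal intensities, scaled on each of the 12 arrays to a trimmed mean of 100, and no MAS5 version is given in the sources used here. The study's methods also name a PLIER summary, which these intensity values are not, and staining for an astrocyte protein where the labels give toluidine blue. Pre-symptomatic arrays were not analysed here.

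Before log2 was taken 7, which is the 20th percentile of the values, was added as an offset, and the signals were quantile-normalised within each age, since array medians spanned 0.83 log2 units at 120 days (0.23 at 90 days). The 64 control probe sets were left out, and 26132 probe sets were tested, namely those brighter than the array's median on 3 or more arrays. With limma 3.58.1 in R 4.3.3 a model of 4 group means (8 residual degrees of freedom) was fitted, and the Benjamini-Hochberg adjustment ran over all probe sets tested, with a threshold of 0.05. Age contrasts used values quantile-normalised over all arrays. The brightest probe set with 1 symbol stands for each gene (34945 probe sets have 1 symbol, 932 several and 9160 none). Members and gene lists were chosen with earlier results of these data known. All member probe sets are named. Of each list, called members are named, at most the 6 with the smallest p, together with Cybc1, Rac1 and Rac3, and the 3 genes nearest to each member.

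Alternatives were the values as deposited, quantile normalisation across both ages, centring on medians, an offset of 1 or of 34, no filter and one at the 75th percentile, separate fits of the ages, a block for the replicate number, weights for arrays, a prior that was trended and robust, an equal-variance test without moderation, the methods' threshold of a 2-fold change with an unadjusted p of 0.05, and each array left out. On simulated data for the 120-day comparison with 25922 probe sets, 8 of 97 probe sets changed 2-fold and 65 of 94 changed 4-fold were called, and 4 unchanged ones. The noise was drawn separately for each probe set, without spread shared by an array. Far fewer probe sets were changed than were called in the measured comparison, so that these rates do not carry over to it. Precision is limited by the number of arrays. Animals of a group are separate mice, and detection calls were not used here. Plots were made in python 3.11.15 with matplotlib 3.10.9. One further oxidase gene is not reported here.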

Additional observations from a re-analysis of the deposited data

How the results depend on the processing

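The direction of Cyba 1454268_a_at, Cybb 1436778_at, Ncf1 1456772_at and Ncf4 1418465_at was positive at both ages under every alternative run that tested them. At 120 days 4 of 5 oxidase probe sets were called, and 5 of 5 on the values as deposited, where Cybb 1436779_at was added. The offset gave the lowest and highest late-stage value of Cyba, 2.06 with 34 and 3.82 with 1. Leaving out single arrays gave 2 to 5, with 2 without NTg replicate 2 of 120 days, and the filter at the 75th percentile gave 2 because only Cyba and Ncf1 passed it. At 90 days 0 were called, and 1 was with the offset of 34 (Cyba, adjusted p = 0.00745) and 1 with array weights (Cybb, adjusted p = 0.0385), and leaving out single arrays gave 0 to 1. The fold change of 2 with an unadjusted p under 0.05 gave 3 at 90 days and 1 for the difference between the stages, which was 0 otherwise, and 0 to 0 with single arrays left out. In the age contrasts 1 was called, against 2 on the values as deposited, 2 with array weights and 0 to 1 with single arrays left out. The cause of these shifts was not tested. Ncf4 at 120 days missed the threshold in the unmoderated test (adjusted p = 0.0547). Signs turned, none of them in a called value, for Cybb 1436778_at from 90 to 120 days in NTg mice on the values as deposited (0.033), for the difference between the stages of Cybb 1436779_at with an offset of 1 (-0.39), and with single arrays left out for that difference (-0.13 to 0.60), for that of Cybb 1436778_at (-0.083 to 0.68) and for its change from 90 to 120 days in SOD1 G93A mice (-0.081 to 0.71). The replicate number as a block gave 0 called at 90 days, 4 at 120 days and 0 for the difference. Animals of equal number in the 2 genotypes did not deviate together (correlations of -0.28 to 0.28), so the numbers were not taken as pairs. Those of unequal number had correlations of -0.36 to 0.46. The highest was that of NTg replicate 3 with SOD1 G93A replicate 1 at 90 days, and its cause was not tested. Signals near the offset, as those of Rac2 and Nox4, carry little precision.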
